A study of Mus musculus with 12 samples.

Results

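The 5 genes described here encode a small set of immune receptors and their ligands: the receptors Cd226, Tigit and Cd96, and the ligands Pvr and Nectin2. They were taken by symbol from the 32288 rows of each deposited gene count file, and 1 row was found for each. Cd226, also called DNAM-1, is an activating receptor on NK cells, T cells, platelets and mast cells. Tigit and Cd96 bind the same ligand, Pvr (CD155), as rivals of Cd226, and Tigit carries an inhibitory signal into T and NK cells. Nectin2 (CD112) is a related cell surface adhesion protein that Cd226 also binds. Pvr and Nectin2 are often found on tumor cells and myeloid cells, so in whole tumor RNA the receptors and the ligands can come from different cells. Cd226 was included because its level in every illuminated tumor lay above its level in every dark tumor, so that its light against dark values are given as a description without a test. The other 4 genes came in as its partners.

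The RNA came from 12 subcutaneous tumors of P815 cells, a mouse mastocytoma line of the mast cell lineage, grown in young adult DBA/2 mice, 1 tumor per mouse and 3 mice per group. The P815-IFNG line carries GAVPO, a light-sensitive transactivator under the constitutive EF-1α promoter, and an Ifng-Cxcl10 cassette under a promoter with UAS repeats that GAVPO switches on in blue light. The P815-M line is the control without that module. Both lines are single-cell clones and both carry mRuby-Fluc, so each line stands for 1 clone, and a difference between the lines cannot be told apart from a difference between clones. Illuminated mice received blue light for 12 h per day over 6 days, and dark mice received none. The comparison asks whether light changes the tumor transcriptome through the cytokine module, with P815-M tumors showing what light does without it. The dark P815-IFNG tumors hold the same module without illumination.

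The knock-in sequences followed the labels of the lines. GAVPO had 1040 to 79894 counts in the 6 P815-IFNG libraries and 0 to 4 in the 6 P815-M libraries, and the cytokine cassette had 6 to 228 against 0 to 2. Within P815-IFNG tumors the cassette had 11, 6 and 228 counts in light and 9, 6 and 126 in dark. These are raw counts of libraries of unequal depth. Scaled to library size after TMM normalization, each light library lay above each dark one, but with a narrow gap and few counts. With plain library totals this order did not hold. Replicate 2 of light, with 6 of 2222706 counts, was then below replicate 1 of dark, with 9 of 2946792. In 10 libraries the total was 2211234 to 2946792 counts. Replicate 3 of P815-IFNG light had 41473500 and replicate 3 of P815-IFNG dark had 42338096, and these are called the deep libraries below. They also stood apart in the share of mt-Nd6 among mitochondrial coding counts, 3.56% and 3.85% against 29.0% to 47.9% in the other 10, and in the summed mast cell markers (led by Cpa3 and Gata2), 12147 and 9140 CPM against 1978 to 2847. Mt-Nd6 is encoded on the opposite strand from the other mitochondrial coding genes. Cd247, whose exons overlap a gene on the other strand, had 13.6 and 15.7 CPM in the deep libraries and 167 to 219 CPM in P815-M tumors. Whether counts of the 5 genes in the other 10 libraries, which include all P815-M tumors, hold reads of the opposite strand was not tested. Light against dark is therefore given with and without the deep libraries for 4 of the 5 genes, Cd96 being too rare to fit without them. It is also given so for the gene lists whose counts or medians differ. Values with no such remark are over all 12 libraries. CPM scales counts to a common library size after TMM normalization. A count of 0 allows up to 3 counts, which stood for 0.931 to 1.56 CPM where the depth was low, but only for 0.0670 (dark) and 0.0694 (light) CPM at the larger depth. Intervals and limits cover counting error only.

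The 5 genes lie on 3 chromosomes (GRCm38, GENCODE M21). Cd226 is at chr18:89176967-89272229 on the plus strand, Tigit at chr16:43648867-43664146 and Cd96 at chr16:46035657-46120251 on the minus strand, 2372 kb apart. Both ligand genes lie on the minus strand of chromosome 7, Nectin2 at chr7:19716644-19750483 and Pvr at chr7:19903578-19921160, with 153 kb between them. Exons of Nectin2 share 135 bases with exons of Gm20512 on the other strand, whereas the other 4 genes share none with an opposite-strand exon.

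By counts, which also depend on exon length, the receptors were rare and the ligands moderate. Over the 12 libraries Pvr had 2528 counts, Nectin2 988, Cd226 378, Tigit 186 and Cd96 10, and without the deep libraries these sums were 314, 239, 74, 62 and 4. On the scale of CPM per kb of exon, which allows levels of different genes to be set side by side, the median level was 2.61 for Nectin2, 2.35 for Pvr, 2.16 for Tigit, 0.455 for Cd226 and 0 for Cd96. Cd226 was below both ligands in 12 of 12 libraries, below Tigit in 11 of 12 and above Cd96 in 12 of 12. The neighbours at the top of that order were not separated: Tigit was above Pvr in 6 libraries and below it in 6. Nectin2 was above Pvr in 9 of 12. In the deep libraries Pvr was the highest of the 5 genes, at 5.10 (light) and 3.15 (dark) CPM per kb. There Nectin2 was at 2.34 and 2.53, and Tigit at 1.36 and 1.70.

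**Figure D1:**
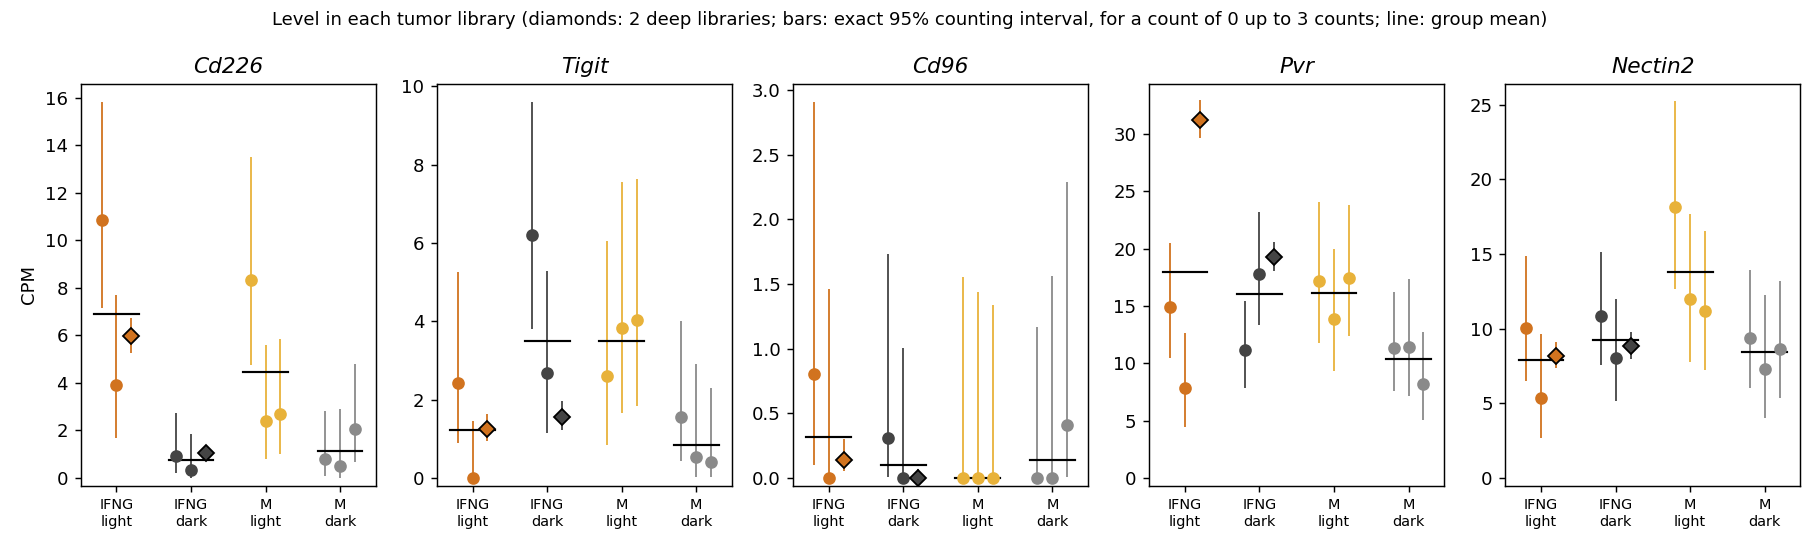
Level of each gene in CPM (vertical axis, a separate linear scale per gene) in the 12 libraries, in groups of 3 along the horizontal axis. Points are single libraries with exact 95% counting intervals (for a count of 0, up to 3 counts), diamonds the 2 deep libraries and horizontal lines the group means. Cd226 is higher in light than in dark in both lines, Tigit differs in opposite directions in the 2 lines, and Pvr has its highest value, 31.3 CPM, in the deep P815-IFNG light library.

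Cd226 was higher in light in both lines. In P815-IFNG tumors the light libraries had 27, 8 and 258 counts, or 10.9, 3.90 and 5.97 CPM, and the dark libraries had 3, 1 and 46 counts, or 0.931, 0.335 and 1.03 CPM. The group means were 6.91 ± 3.57 and 0.764 ± 0.375 CPM (SD, n = 3). The lowest light library was thus at 3.90 CPM and the highest dark library at 1.03 CPM, a clear gap within this line. The fitted log2 fold change was 3.07 with a standard error of 0.77.

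In P815-M tumors, which hold no cytokine module, the light libraries had 16, 5 and 6 Cd226 counts, or 8.31, 2.39 and 2.68 CPM. The dark libraries had 2, 1 and 5 counts, or 0.781, 0.521 and 2.06 CPM. The group means were 4.46 ± 3.33 and 1.12 ± 0.823 CPM (SD, n = 3). In this line the groups did not overlap but nearly touched: the lowest light library and the highest dark library each held 5 counts, with exact 95% intervals of 0.777 to 5.59 and 0.668 to 4.80 CPM, and the order between them came from the size of the libraries alone. Fitted over all libraries, the log2 fold change was 1.95 with a standard error of 0.80, against 1.15 without replicate 1 of the light group and 1.88 without the deep libraries.

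The rule that picked Cd226 rests on this narrow pair of values. With the scale of DESeq2 size factors the lowest of the 6 light libraries was at 2.84 and the highest of the 6 dark ones at 2.41 CPM, and with plain library totals they were at 2.15 and 1.95. Of the 18804 genes tested, 12 (0.0638%) had all 6 light libraries above all 6 dark ones, and Cd226 was 1 of them. The other 4 genes fell outside that rule. Nectin2, for example, had its lowest light library at 5.37 and its highest dark one at 10.9 CPM.

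The deep libraries measured Cd226 with little counting error. Their light to dark ratio was 5.82 (exact 95% interval 4.24 to 8.14), which compares 1 tumor with 1 tumor and not the conditions. Without the deep libraries, the fitted log2 fold change in P815-IFNG tumors was 3.44 with a standard error of 0.93. The light effect was larger in P815-IFNG than in P815-M tumors by 1.11 on the log2 scale, with a standard error of 1.08. This difference ranged from 0.35 to 1.92 when single libraries were left out. It uses the light and dark values by which Cd226 was chosen and is a description without a test. The 2 lines themselves, which the rule did not use, were not separated in Cd226. The log2 fold change of P815-IFNG against P815-M was 0.64 in light (95% interval -0.76 to 2.03, edgeR adjusted p = 0.731) and -0.48 in dark (-2.07 to 1.12, adjusted p = 0.784). The latter turned to 0.29 without replicate 3 of P815-M dark. The two-sided exact permutation test of the level between lines, within light and within dark, gave p = 0.5.

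Tigit, the inhibitory rival, followed light in P815-M tumors and went the other way in P815-IFNG tumors, without passing the test in either line. In P815-IFNG tumors the light libraries had 6, 0 and 54 counts, or 2.41, 0 and 1.25 CPM, and the dark libraries had 20, 8 and 70 counts, or 6.21, 2.68 and 1.56 CPM. A count of 0 allows up to 3 counts, here 1.46 CPM. The 2 groups overlapped, since the highest light library stood above the deep dark library. In P815-M tumors the light libraries had 5, 8 and 9 counts, or 2.60, 3.83 and 4.02 CPM, and the dark libraries had 4, 1 and 1 counts, or 1.56, 0.521 and 0.412 CPM. Here every light library was above every dark one.

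The log2 fold change of Tigit in light against dark was -1.44 (95% interval -3.24 to 0.37) in P815-IFNG tumors and 2.02 (0.05 to 4.0) in P815-M tumors, each with an edgeR adjusted p of 1. Without the deep libraries they were -1.76 and 1.95. The exact permutation test, two-sided, gave p = 0.2 and p = 0.1, the latter being the smallest p that 3 against 3 allows. The difference between the 2 light effects was -3.46 on the log2 scale (standard error 1.37, 95% interval -6.14 to -0.79). In edgeR's test this had an unadjusted p of 0.0271 and an adjusted p of 0.9999, and in that comparison 313 of 18804 genes (1.66%) had an unadjusted p below 0.05. It was -3.71 without the deep libraries, and from -4.32 to -2.73 when single libraries were left out. Averaged over both lines, the effect of light on Tigit was 0.29, and -0.07 without replicate 1 of P815-IFNG light. In the deep libraries the light to dark ratio of Tigit was 0.800 (exact 95% interval 0.550 to 1.16), within counting error of 1.

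**Figure D2:**
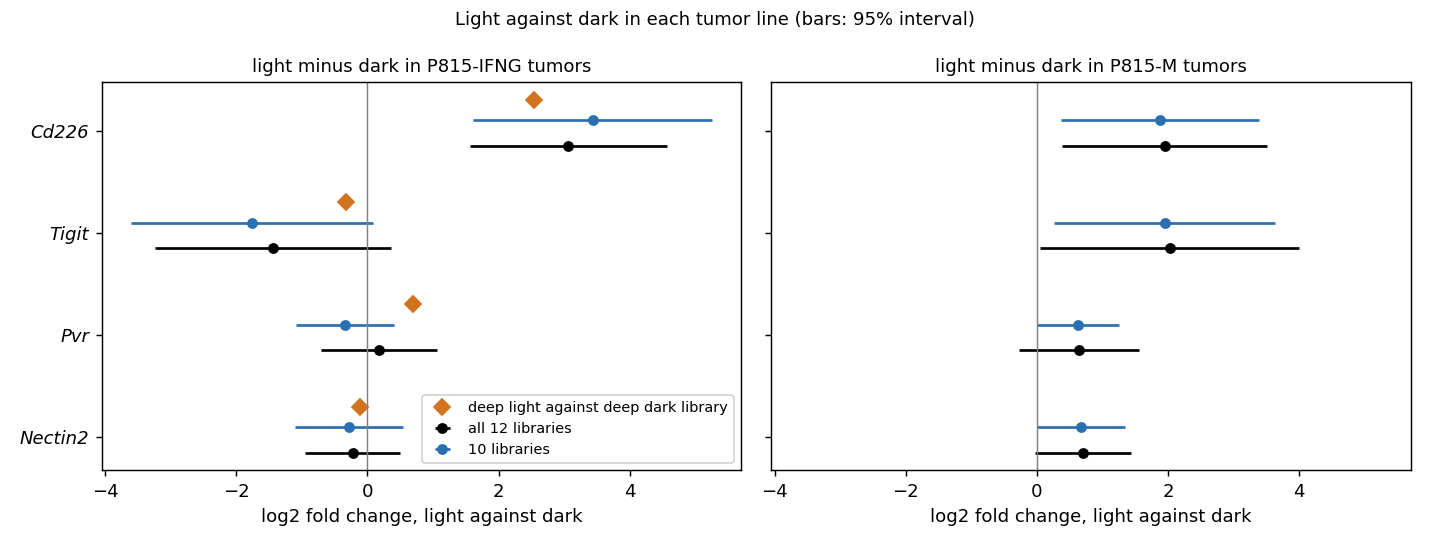
Log2 fold change of light against dark (horizontal axis) for 4 genes (vertical axis) in P815-IFNG tumors (left) and P815-M tumors (right). Circles are edgeR fits with all 12 libraries (black) and with the 10 libraries without the deep ones (blue), bars are 95% intervals, and diamonds give the deep light library against the deep dark one. Cd226 was chosen by its light and dark values, so its points and bars are a description without a test. Tigit is at -1.44 and 2.02 with all libraries, and Pvr in P815-IFNG tumors changes sign between the fits.

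Cd96, the other rival receptor, was barely counted. P815-IFNG tumors had 2, 0 and 6 counts with light and 1, 0 and 0 without it. P815-M tumors had none with light and 0, 0 and 1 without it. Its total of 10 just met the minimum for testing. In the deep libraries it had 6 counts in light and 0 in dark, and 11 of the 12 libraries were at or under 3 counts, so that a fold change could not be read at this depth. No comparison called it (edgeR, lowest adjusted p of 0.493 over the alternatives in which it was fitted).

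The share of Cd226 among the counts of the 3 receptors was 77.1%, 100% and 81.1% in P815-IFNG light and 12.5%, 11.1% and 39.7% in P815-IFNG dark. In P815-M tumors it was 76.2%, 38.5% and 40.0% in light and 33.3%, 50% and 71.4% in dark, and these groups overlapped. The group means were 86.1 ± 12.2% and 21.1 ± 16.1% in P815-IFNG light and dark, and 51.6 ± 21.4% and 51.6 ± 19.1% in P815-M light and dark (SD, n = 3). The share contains Cd226 and is therefore a description. The deep libraries gave it with the narrowest 95% Wilson intervals, 76.5 to 85.1% from 318 receptor counts in light and 31.2 to 48.8% from 116 in dark, whereas the P815-M dark libraries held 2 to 7 receptor counts each.

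**Figure D3:**
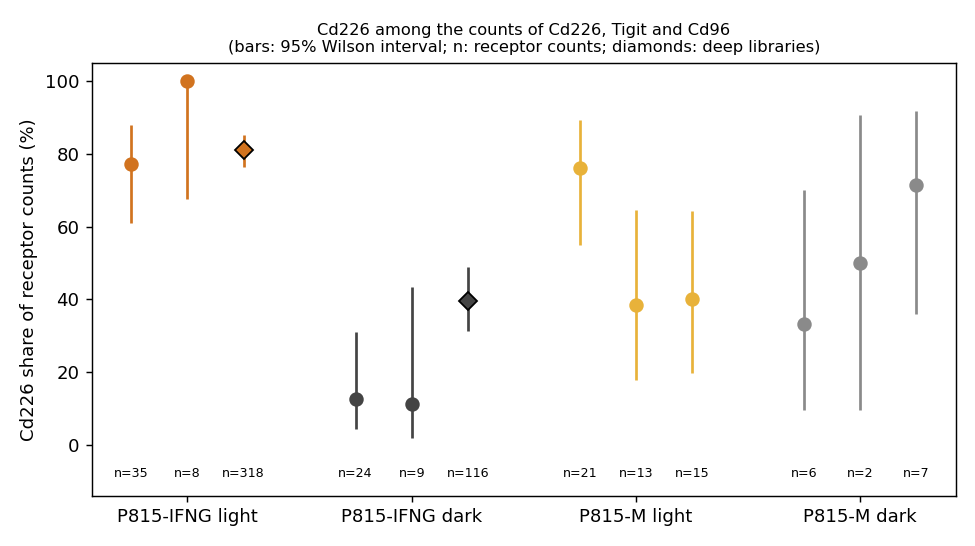
Share of Cd226 among the counts of Cd226, Tigit and Cd96, in percent (vertical axis), in the 12 libraries (horizontal axis, by group). Bars are 95% Wilson intervals, n is the number of receptor counts and diamonds are the deep libraries. The 3 P815-IFNG light libraries are at 77.1% or above and the 3 dark ones at 39.7% or below, while the P815-M groups overlap.

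Pvr, the ligand that all 3 receptors bind, was the most counted of the 5 genes and did not separate light from dark in P815-IFNG tumors. The light libraries had 14.9, 7.81 and 31.3 CPM and the dark libraries 11.2, 17.8 and 19.3 CPM. The deep light library held the highest value and another light library the lowest, so the groups overlapped over their whole range. Light against dark gave a log2 fold change of 0.18 (95% interval -0.70 to 1.07), and it turned to -0.34 without the deep libraries and to -0.45 without the deep light library alone. Between the deep libraries the ratio was 1.62 (exact 95% interval 1.49 to 1.77). Summed mast cell markers were 12147 CPM in the deep light and 9140 CPM in the deep dark library, and their part in this ratio was not tested.

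In P815-M tumors Pvr was at 17.1, 13.9 and 17.4 CPM in light and 11.3, 11.5 and 8.23 CPM in dark. Every light library was above every dark one, as it was for 1894 of 18804 genes (10.1%) in this line, among them Tigit, Pvr and Nectin2. In P815-IFNG tumors light was above dark without overlap for 187 genes (0.994%), and for none of these 3. Cd226 met this order in both lines by the rule that chose it. The log2 fold change of Pvr in P815-M tumors was 0.64 (95% interval -0.28 to 1.57, edgeR adjusted p = 1), and 0.63 without the deep libraries. The exact permutation test, two-sided, gave the smallest possible p = 0.1.

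Nectin2 had a similar level in P815-IFNG light and dark tumors. The light libraries were at 10.1, 5.37 and 8.17 CPM and the dark libraries at 10.9, 8.04 and 8.84 CPM, and the groups overlapped. Light against dark gave a log2 fold change of -0.23 (95% interval -0.95 to 0.50), and the deep libraries gave a ratio of 0.924 (exact 95% interval 0.798 to 1.07). In P815-M tumors Nectin2 was at 18.2, 12.0 and 11.2 CPM in light and 9.37, 7.29 and 8.64 CPM in dark, with no overlap. Here the log2 fold change was 0.70 (95% interval -0.04 to 1.44, edgeR adjusted p = 1), and the exact permutation test, two-sided, gave p = 0.1. Without the deep libraries the 2 fold changes were -0.28 and 0.67. The 2 light effects differed by -0.93 (95% interval -1.96 to 0.10, edgeR adjusted p = 0.9999).

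The P815-M light libraries were also the highest group for Nectin2 between lines. In light each P815-IFNG library was below each P815-M library, with a log2 fold change of -0.80 (95% interval -1.53 to -0.07, edgeR adjusted p = 0.629) and p = 0.1 in the two-sided exact permutation test. Tigit showed the same order in light, with a log2 fold change of -1.47 (95% interval -3.31 to 0.37, edgeR adjusted p = 0.632). Such an order was found for 1449 of 18804 genes (7.71%). In dark the order of Tigit was the opposite, with almost no gap: the lowest P815-IFNG dark library, the deep one with 70 counts, was at 1.5627 CPM and the highest P815-M dark library, with 4 counts, at 1.5613 CPM. The log2 fold change of Tigit in dark was 1.99 (95% interval 0.04 to 3.94, edgeR adjusted p = 0.604), and 2054 genes (10.9%) had P815-IFNG above P815-M without overlap in dark.

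None of the 5 genes was called in any comparison, where a call needed an edgeR adjusted p no higher than 0.05 together with a log2 fold change of 1 or more in size. Cd226 was not tested in light against dark or in the difference of light effects. Calls were rare among all genes. Light against dark gave 0 calls in P815-IFNG (0.0%, with 409 genes at an unadjusted p under 0.05 and 4 calls in DESeq2) and 0 in P815-M tumors (0.0%, with 510 and 1). P815-IFNG against P815-M gave 3 calls in light (0.016%) and 2 in dark (0.0106%). The lowest adjusted p over all alternatives was 0.154 for Tigit, in dark between lines without the deep libraries, 0.332 for Pvr and 0.353 for Nectin2.

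In whole tumor RNA, fewer cells of a type and less RNA per cell cannot be told apart, so the markers of the cells that carry these receptors are given beside them. The CD3 chains Cd3e, Cd3d and Cd3g, which form the T cell receptor complex, summed to 1.95 to 5.23 CPM (light) and 2.92 to 11.2 CPM (dark) in P815-IFNG tumors, and to 2.39 to 8.05 CPM (light) and 0.521 to 5.46 CPM (dark) in P815-M tumors. All groups overlapped. In the deep libraries this sum was mostly Cd3g, with 171 and 119 counts against 7 and 5 for Cd3e. Exons of Cd3e share 135 bases with an exon on the other strand. Per 100 CD3 counts there were 208, 200 and 137 Cd226 counts in P815-IFNG light and 8.33, 5 and 35.1 in P815-IFNG dark. In P815-M tumors there were 200, 100 and 33.3 in light and 14.3, 100 and 62.5 in dark. These ratios contain the Cd226 values by which the gene was chosen and are a description, and several rest on very few CD3 counts, down to 1. Of the 16 T cell markers (led by Cd247 and Thy1), 4 had a higher and 12 a lower fitted level in light in P815-IFNG tumors (median log2 fold change -0.70, against -0.02 over all genes), and 11 were higher and 5 lower in P815-M tumors (0.58, against 0.01). None was called. Without the deep libraries the medians were -0.82, with 2 higher and 14 lower, and 0.55. Exons of Cd247 share 3007 bases with exons of Pou2f1 on the other strand. Without the genes so overlapped, 14 T cell markers summed to 48.3 to 105.8 CPM in P815-IFNG light and 91.8 to 95.6 CPM in P815-IFNG dark. In P815-M tumors they summed to 84.3 to 113.6 CPM in light and 68.2 to 92.9 CPM in dark, so light and dark overlapped in both lines. The part of T cells in the Cd226 values was not tested.

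Between the deep libraries, which compare 1 tumor with 1 tumor, most of the listed T cell and NK cell markers were higher in light. The share of all genes that were higher is not given here, and several of the differences were within counting error. Among these were Cd3e with 7 against 5 counts, Cd3d with 11 against 7, Klrc1 with 6 against 4 and Eomes with 13 against 11. Of the 16 T cell markers 12 were higher and 4 lower in the deep light than in the deep dark library, with sums of 120 and 108 CPM. The T cell receptor constant genes Trbc1 and Trbc2, chosen with their values in view, had 97 against 12 counts (ratio 8.38, exact 95% interval 4.59 to 16.8) and 48 against 5 (ratio 9.95, 3.98 to 32.0), and the co-receptor Cd4 had 47 against 5. The co-stimulatory receptor Cd28 went the other way, with 106 against 275 counts (ratio 0.400, 0.316 to 0.502). So did Cd247 with 589 against 703 counts, Cd5 with 0 against 8 and Cd8b1 with 0 against 5. Of 12 NK cell markers (led by Prf1 and Nkg7), 11 were higher in the deep light than in the deep dark library and 1, Klra8, was at 0 in all libraries. The sum was 103.9 against 58.0 CPM. Among these markers, chosen with their values in view, the receptor gene Ncr1 had 81 against 9 counts (ratio 9.33, exact 95% interval 4.68 to 21.1). Klrk1, which encodes NKG2D, had 168 against 28 (ratio 6.22, 4.15 to 9.64). Gzma, a granule protease, had 206 against 1. The other 2 libraries of each P815-IFNG group did not show this. Their NK cell marker sums were 49.1 and 27.3 CPM in light and 58.0 and 46.2 CPM in dark, and Ncr1 had 2 and 0 counts in light and 4 and 2 in dark. In P815-M tumors the sums were 54.0, 65.1 and 78.3 CPM in light and 48.8, 33.9 and 52.7 CPM in dark, with light above dark. Fitted over all libraries, 6 NK cell markers were higher and 5 lower in light in P815-IFNG tumors, 7 were higher and 4 lower in P815-M tumors, and none was called. Without the deep libraries 1 was higher and 9 lower in P815-IFNG tumors, with a median log2 fold change of -0.85 against 0.11 with them. The part of NK cells in the Cd226 values was not tested.

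**Figure D4:**
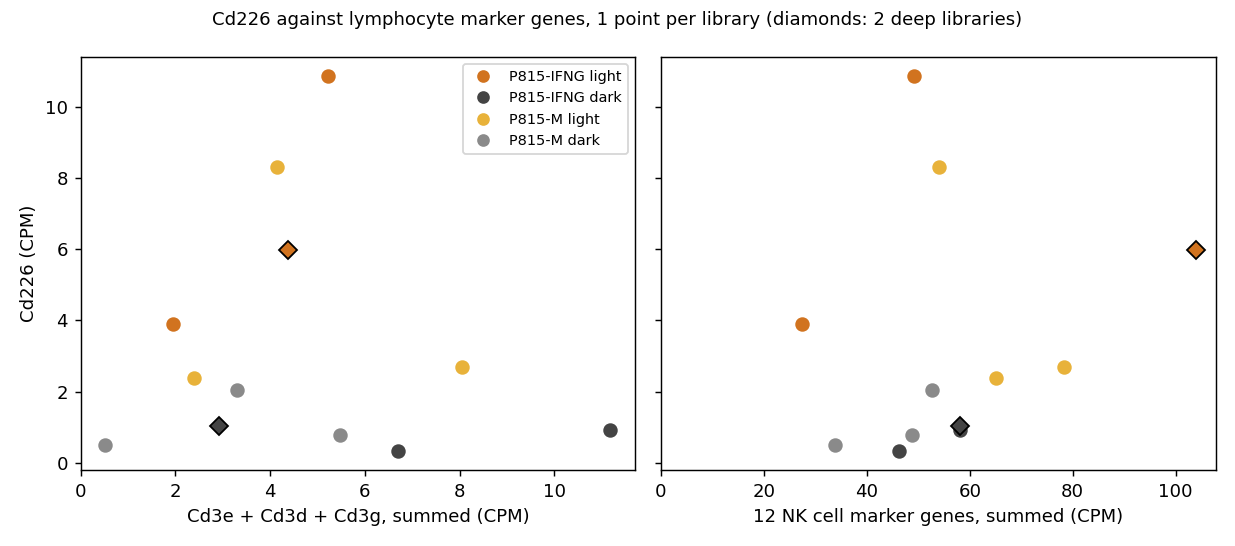
Cd226 in CPM (vertical axis) against the summed CD3 chains (left) and the sum of 12 NK cell markers (right) in CPM, 1 point per library, with diamonds for the deep libraries. The P815-IFNG dark library with the highest CD3 sum, 11.2 CPM, has 0.931 CPM of Cd226, and the deep light library has the highest NK cell marker sum, 103.9 CPM.

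Mast cells and platelets can also carry Cd226. The mast cell markers had 3 higher and 8 lower of 11 tested in P815-IFNG light against dark and 5 higher and 6 lower in P815-M tumors, with medians of -0.23 and -0.14. Of the 11 platelet and megakaryocyte markers (led by Itga2b and Itgb3), 6 were tested, and Gp1bb was at 0 in all libraries. The summed platelet markers were 201 to 257 CPM in P815-IFNG light and 241 to 326 CPM in P815-IFNG dark. Regulatory T cell markers (led by Foxp3 and Ikzf2, which have exons opposite to those of other genes) had 3 higher and 3 lower in P815-IFNG tumors, and B cell markers (led by Cd79a and Jchain) had 1 higher and 5 lower. None of these was called, with or without the deep libraries, and their part in the Cd226 values was not tested. Without them 1 mast cell marker was higher and 9 lower in P815-IFNG tumors (median -0.61), and the regulatory T cell median moved from -0.15 to 0.14.

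Macrophages are a usual source of Pvr and Nectin2 besides tumor cells. All 10 macrophage markers (led by Csf1r and C1qa) had a higher fitted level in light in P815-M tumors, with a median log2 fold change of 0.83, and their sum was 1066 to 1204 CPM in light and 692 to 869 CPM in dark. In P815-IFNG tumors 4 were higher and 6 lower, with a median of -0.11 and overlapping sums of 641 to 1135 and 466 to 1522 CPM. The deep libraries held the lowest sum of each group, 641 CPM in light and 466 CPM in dark. Without them light was below dark, at 1135 and 990 against 1374 and 1522 CPM (2 markers higher and 8 lower, median -0.20). This order rests on 2 libraries against 2 and was not tested. Exons of Csf1r share 873 bases with exons of Hmgxb3 on the other strand. No macrophage marker was called in light against dark with all libraries, and without the deep ones C1qa was called in P815-M tumors (log2 fold change 1.09, edgeR adjusted p = 0.0355). Fibroblast markers (led by Col3a1 and Col1a1) had 5 higher and 1 lower in P815-M and 1 higher and 5 lower in P815-IFNG tumors (0 and 6 without the deep libraries), endothelial markers (led by Pecam1 and Cdh5) had 1 higher and 5 lower in both lines, and skeletal muscle markers (led by Ckm and Ttn) had 0 higher and 6 lower in P815-IFNG tumors, with a median of -4.50, and none of these was called either. Their part in the Pvr and Nectin2 values was not tested.

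Among the relatives of Pvr and Nectin2 in the nectin and nectin-like families, 9 of 10 listed genes were tested and none was called in any comparison. Pvrig, a further inhibitory receptor that binds Nectin2, had a count of 0 in every library. In P815-M tumors 7 of the 9 were higher and 1 lower in light, with a median log2 fold change of 0.54 against 0.01 over all genes, and in P815-IFNG tumors 4 were higher and 5 lower, with a median of -0.25. Without the deep libraries, which left 8 to test, 7 were higher and 1 lower in P815-M tumors (0.63), and 3 higher and 5 lower in P815-IFNG tumors (-0.82). The adhesion molecule Nectin3 had means of 2.41 CPM with light and 0.911 CPM without it in P815-M tumors, with a log2 fold change of 1.42 (95% interval -0.36 to 3.20). Cadm1, the ligand of the T and NK cell receptor Crtam, had 9.79 ± 3.56 and 2.12 ± 0.491 CPM (SD, n = 3) in the same groups, with a log2 fold change of 2.19 (-0.27 to 4.64), and 2.14 without the deep libraries (1.05 to 3.23, edgeR adjusted p = 0.0787). Crtam itself was at or below 2.17 CPM in all libraries.

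The 12 signalling partners of the receptors were all tested and none was called. Many of them also work in mast cells and myeloid cells. In light against dark 4 were higher and 8 lower in P815-IFNG tumors and 5 were higher and 7 lower in P815-M tumors, with medians of -0.12 and -0.15, and -0.16 in both lines without the deep libraries. Itgb2, a subunit of the integrin LFA-1 that associates with Cd226, had 167 ± 107 and 116 ± 34.6 CPM in P815-IFNG light and dark and 170 ± 27.3 and 83.8 ± 33.1 CPM in P815-M light and dark (SD, n = 3). Its log2 fold change averaged over both lines was 0.78 (95% interval 0.11 to 1.44, edgeR adjusted p = 0.9999), and 0.81 without the deep libraries (adjusted p = 0.119). Itgal, the other LFA-1 subunit, had 52.7 ± 12.7 and 70.4 ± 20.2 CPM in P815-IFNG light and dark (log2 fold change -0.42, 95% interval -1.06 to 0.23) and 56.3 ± 4.27 and 42.9 ± 15.8 CPM in P815-M light and dark (0.39, -0.26 to 1.04). Prkcq, a kinase of T cell and mast cell signalling, was higher in P815-IFNG than in P815-M tumors by 1.39 in light and 1.21 in dark on the log2 scale (edgeR adjusted p = 0.629 and adjusted p = 0.604), and by 0.99 and 0.76 without the deep libraries.

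The genes whose log2 CPM was most like that of Cd226 across libraries were not its partners. Of 12173 genes with a mean of at least 5 CPM, ranked by the lower of Pearson's r over all 12 libraries and over the 10 without the deep ones, the leading 5 were Gm14548 (r = 0.859 and 0.855), Lair1 (0.831 and 0.844), Dmtf1 (0.824 and 0.885), Ranbp9 (0.816 and 0.843) and Trim71 (0.811 and 0.843). Lair1, an inhibitory collagen receptor of leukocytes, had 18.4 ± 4.66 CPM with light and 8.97 ± 4.57 CPM without it in P815-IFNG tumors, and 12.9 ± 2.26 against 4.26 ± 1.11 CPM in P815-M tumors (SD, n = 3). By the same measure Ifng would rank at 27, Cd96 at 806, Nectin2 at 1000, Pvr at 3090 and Tigit at 5642. For Tigit r was -0.05 over 12 libraries. Ifng (mean 2.37 CPM), Cd96 (0.139 CPM) and Tigit (2.25 CPM) were below the minimum of 5 CPM. Ifng had its highest level, 14.9 CPM, in replicate 1 of P815-IFNG light, where Cd226 was also highest, at 10.9 CPM. The cassette of the P815-IFNG line also carries Ifng. The points share the libraries, their depth and the light condition by which Cd226 was chosen. Exons of Dmtf1, Ranbp9 and Trim71 share 404, 453 and 135 bases with an exon on the other strand.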

How the data were processed

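Each tumor has 1 deposited file of unnormalized gene counts, which the authors made from TruSeq Stranded mRNA libraries with STAR 2.7.9a and HTSeq 0.13.5 against mm10 to which the knock-in sequences had been joined. HTSeq's strand setting is not given beyond its defaults. The labels give 6 days of illumination, and the methods section gives another duration. Mitochondrial genes and genes with a total under 10 counts were removed, as in the study's methods. The main test was that of edgeR 4.0.16 in R 4.3.3 (TMM, 1 mean per group, quasi-likelihood test, Benjamini-Hochberg adjustment over 18804 genes) and single genes also with exact permutation tests of CPM, in Python 3.11.15 with scipy 1.17.1. The 95% intervals of fold changes use the normal distribution, and log2 CPM had a prior count of 2. The edgeR code was tested on simulated data.

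The named genes are the 5 chosen genes, the pathway lists, the top 2 genes of each marker list and the 5 genes most like Cd226. The members and lists were chosen with earlier results of these data known. No pair of libraries was identical (0 pairs). Same-numbered P815-IFNG light and dark libraries deviated together (r = 0.579, 0.578 and 0.874 over genes), but so did replicate 1 of one and replicate 2 of the other (r = 0.570 and 0.544), since both replicates 3 are the deep libraries. Between the other pairs of groups r was -0.179 to 0.190. The labels call the samples biological replicates. The alternatives were DESeq2 1.42.0, its size factors, edgeR's filterByExpr, no filter, a fit to only the libraries compared, a replicate block, the deep libraries as a batch term, ComBat-seq of sva 3.50.0, the deep libraries left out, and each library left out. The batches of the study's own ComBat-seq step are not named in the sources used here. The scalings of the gap between light and dark in Cd226 and the counts of the gene lists without the deep libraries were added after the data were seen.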

Additional observations from a re-analysis of the deposited data

How the results depend on the processing

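Of 574 values of the 5 genes under the alternatives, 558 counted as unchanged, 14 changed sign and 2 moved by more than the spread between replicates. Unchanged meant the same direction and the same side of the threshold. For the Cd226 values without a test it meant only a distance from the main fit within that spread, 0.796 on the log2 scale. The replicate block changed no call of the 5 genes, with Cd226 in P815-IFNG tumors at 3.07 and the Tigit difference between light effects at -3.72 (edgeR adjusted p = 1), and gave 7 genes called between lines in dark. Sign changes were, on the log2 scale, Cd96 averaged over lines with DESeq2 (0.49), Nectin2 between lines in dark with DESeq2 (-0.054) and its size factors (-0.023), Pvr between lines in light with the batch term (-0.25), ComBat-seq (-0.26) and without the deep libraries (-0.49), and Pvr in P815-IFNG light against dark without the deep libraries (-0.34). With each library left out in turn the ranges were -0.075 to 0.72 for Tigit averaged over lines, -0.45 to 0.53 for Pvr in P815-IFNG tumors, -0.48 to 0.53 for Pvr between lines in light, -0.067 to 0.21 for Nectin2, -1.83 to 0.14 for Cd96 and -0.81 to 0.29 for Cd226 between lines in dark, 1.15 to 2.72 for Cd226 in P815-M tumors and 0.35 to 1.92 for its difference between light effects. The cause of the sign changes was not tested. The range of Cd96 covers only the removal of libraries in which it had a count of 0, since its total otherwise fell under 10.

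The number of genes called moved most. In the order light against dark in P815-IFNG, in P815-M and averaged, between lines in light, between lines in dark, and difference of light effects, it was 4, 1, 6, 41, 38 and 4 with DESeq2, 2, 194, 149, 82, 290 and 3 with the batch term, 180, 261, 303, 272, 579 and 49 with ComBat-seq, and 1, 157, 77, 39, 371 and 2 without the deep libraries. Only the libraries compared gave 244 in P815-M tumors and 0 between lines in light and in dark, and DESeq2's size factors and filterByExpr each gave 4 between lines in dark. Leaving out single libraries gave 1 to 4 between lines in light and 1 to 6 in dark. None of these sets held Tigit, Cd96, Pvr or Nectin2, and those between lines did not hold Cd226. For Cd226 in light against dark and in the difference of light effects no test is given. Cd226 has 5 counts or fewer in 6 of 12 libraries, and Cd96, at or under 3 counts in 11, could not be read at this depth. Cd96 was not fitted with filterByExpr, without the deep libraries or with only the libraries compared. It was also not fitted where a library holding any of its counts was left out.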
